A study of Mus musculus with 3 samples.

Results

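The cytosolic ribosomal protein genes encode the protein subunits of the ribosome that translates nuclear-encoded mRNA. Members were taken by symbol, as protein-coding RefSeq genes named Rpl or Rps with a number and at most 1 closing letter a, l, x or y, together with Rpsa, Rplp0, Rplp1 and Rplp2. The rule gave 81 of 21900 protein-coding genes, 31 of the small and 50 of the large subunit, on 19 chromosomes. They are short, with spans from 592 to 11774 bp and a median of 3175 bp, against a median of 17146 bp for all protein-coding genes. Genes such as Rps3a1, Fau, Rpl36al and Rack1 also belong to the ribosome but carry other names, and they enter only an alternative set.

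PU.1, the product of Spi1, is an ETS-family transcription factor of B cells and myeloid cells that reads a GGAA core with a purine-rich flank. Other ETS factors read the same core with a different flank, and such sites are known from promoters of widely expressed genes. Ribosomal protein genes are active in all growing cells, usually start at a C within a run of pyrimidines, and are not known as a lineage-specific group.

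PU.1 was mapped by ChIP-seq, which sequences the DNA bound by an immunoprecipitated protein, in i660BM cells. These are pro-B cells of the C57BL/6 strain with a PU.1 construct switched on by doxycycline, grown with IL-7. Both PU.1 libraries, named replicates 2 and 3 after their titles, came from cells given 70 ng/ml doxycycline for 24 h and precipitated with the rabbit polyclonal antibody T-21. Neither is an uninduced control, so binding with and without the induction cannot be told apart here. The input DNA library was not analysed here, and nothing in the labels says that the 2 PU.1 libraries came from separate cultures.

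The lists differ in length, with 74494 peaks in replicate 2, 6169 in replicate 3 and 49385 intervals in a merged list for the series. Each peak has the authors' caller score, read as minus 10 times the log10 of its p-value, from 70.0 upward. A score of 3100 acts as a ceiling and was reached or passed by 2656 peaks of replicate 2 and 11 of replicate 3. Scores rise with library depth, which was not analysed here, so they are compared only within a list. A shared region is a stretch joined from overlapping peaks of both libraries. All coordinates are 1-based on mm10 (GRCm38). The identity of the cells was not checked by markers, since ChIP peaks give no expression level.

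Promoter letters of some members are shown first, as examples with and without a peak. The 250 bases before the annotated start of 6 members, from the RefSeq promoter table of GRCm38.p6, are printed 5′ to 3′ on the gene's strand. Capitals mark the ETS core GGAA, or TTCC where it lies on the other strand. Rps19 (chr7:24884342-24884591, plus strand), Rps3 (chr7:99483710-99483959, minus strand) and Rpl27 (chr11:101441995-101442244, plus strand) had the ceiling score over their starts in replicate 2. Rpl36a (chrX:134585404-134585653, plus strand) holds 2 full PU.1-type sites, and Rps6 (chr4:86857368-86857617, minus strand) holds a site of the type read by other ETS factors. Rpl9 (chr5:65391432-65391681, minus strand) had no peak within 5 kb of its ends and is shown as 1 such promoter. It has 2 cores. The others without a peak within 5 kb vary over the window to 50 bases after the start. They have 7 in Rpl39l, 6 in Rpl22, 5 in Rpl10l, 3 in Rps4x and 2 in Rps27l.
Rps19: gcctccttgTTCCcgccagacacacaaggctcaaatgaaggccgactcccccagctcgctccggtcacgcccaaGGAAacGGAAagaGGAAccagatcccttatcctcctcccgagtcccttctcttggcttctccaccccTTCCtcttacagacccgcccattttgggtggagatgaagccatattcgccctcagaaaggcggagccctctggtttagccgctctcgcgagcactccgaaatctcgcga
Rps3: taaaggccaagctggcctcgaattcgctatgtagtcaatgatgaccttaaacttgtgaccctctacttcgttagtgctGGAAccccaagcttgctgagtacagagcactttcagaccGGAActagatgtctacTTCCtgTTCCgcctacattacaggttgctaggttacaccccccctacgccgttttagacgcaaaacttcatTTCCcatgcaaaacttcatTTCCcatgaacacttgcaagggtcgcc
Rpl27: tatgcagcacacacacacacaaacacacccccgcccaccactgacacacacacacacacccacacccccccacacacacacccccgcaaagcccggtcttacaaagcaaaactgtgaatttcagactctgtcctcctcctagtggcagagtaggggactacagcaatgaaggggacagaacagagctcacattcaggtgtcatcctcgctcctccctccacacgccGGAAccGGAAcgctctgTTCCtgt
Rpl36a: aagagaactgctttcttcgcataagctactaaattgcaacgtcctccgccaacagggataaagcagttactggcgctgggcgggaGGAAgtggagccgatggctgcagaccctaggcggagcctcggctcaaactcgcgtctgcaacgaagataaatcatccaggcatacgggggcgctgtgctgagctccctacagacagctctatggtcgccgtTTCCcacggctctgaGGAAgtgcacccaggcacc
Rps6: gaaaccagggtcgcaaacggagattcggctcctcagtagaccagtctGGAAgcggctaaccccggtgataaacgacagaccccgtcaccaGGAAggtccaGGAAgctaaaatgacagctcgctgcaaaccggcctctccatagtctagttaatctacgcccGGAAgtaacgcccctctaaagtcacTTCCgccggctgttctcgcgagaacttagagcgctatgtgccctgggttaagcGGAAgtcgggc
Rpl9: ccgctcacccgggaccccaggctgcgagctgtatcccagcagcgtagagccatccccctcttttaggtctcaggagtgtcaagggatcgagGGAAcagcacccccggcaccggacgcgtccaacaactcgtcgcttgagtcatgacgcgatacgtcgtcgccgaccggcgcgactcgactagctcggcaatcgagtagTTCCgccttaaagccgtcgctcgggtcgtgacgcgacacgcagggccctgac

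The first comparison asks how many members carry PU.1 at an end of the gene. In replicate 2, 69 of the 81 members had a peak within 1 kb of either end (85.2%, exact 95% interval 75.6 to 92.1), where 43.8% of all protein-coding genes did. In replicate 3, 5 of 81 did (6.17%, 2.03 to 13.8), where 4.29% of all genes did. The merged list reached 63 members (77.8%, 67.2 to 86.3), against a background of 36.9%, the same share over all protein-coding genes, and 6 members had a shared region (7.41%, 2.77 to 15.4; background 4.60%). By this measure the long list covered most members, and the interval of the short one holds its background share. Intervals are Clopper-Pearson and cover counting error only, and no test was made across the 2 libraries, which are not groups to compare.

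Within 5 kb of an end, replicate 2 reached 75 members (92.6%, 84.6 to 97.2; background 61.9%) and replicate 3 reached 8 (9.88%, 4.36 to 18.5; background 8.95%). The merged list reached 70 (86.4%; background 53.1%), and shared regions reached 9 (11.1%; background 9.21%). The wider window brings in genes next door. Another protein-coding gene end lies within 5 kb of the ends of 59 of 81 members, a share not counted over all genes. Within 1 kb, 29 members have one (35.8%, against 24.8% of all protein-coding genes). Members with and without close neighbours were counted apart. Of the 52 members with no other gene end within 1 kb, 46 had a replicate 2 peak within 1 kb (88.5%, against 36.8% of all such genes). Of the 29 with one, 23 did (79.3%, against 64.9%). Among protein-coding genes no longer than the longest member, 35.4% had a replicate 2 peak and 3.26% a replicate 3 peak within 1 kb.

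**Figure D1:**
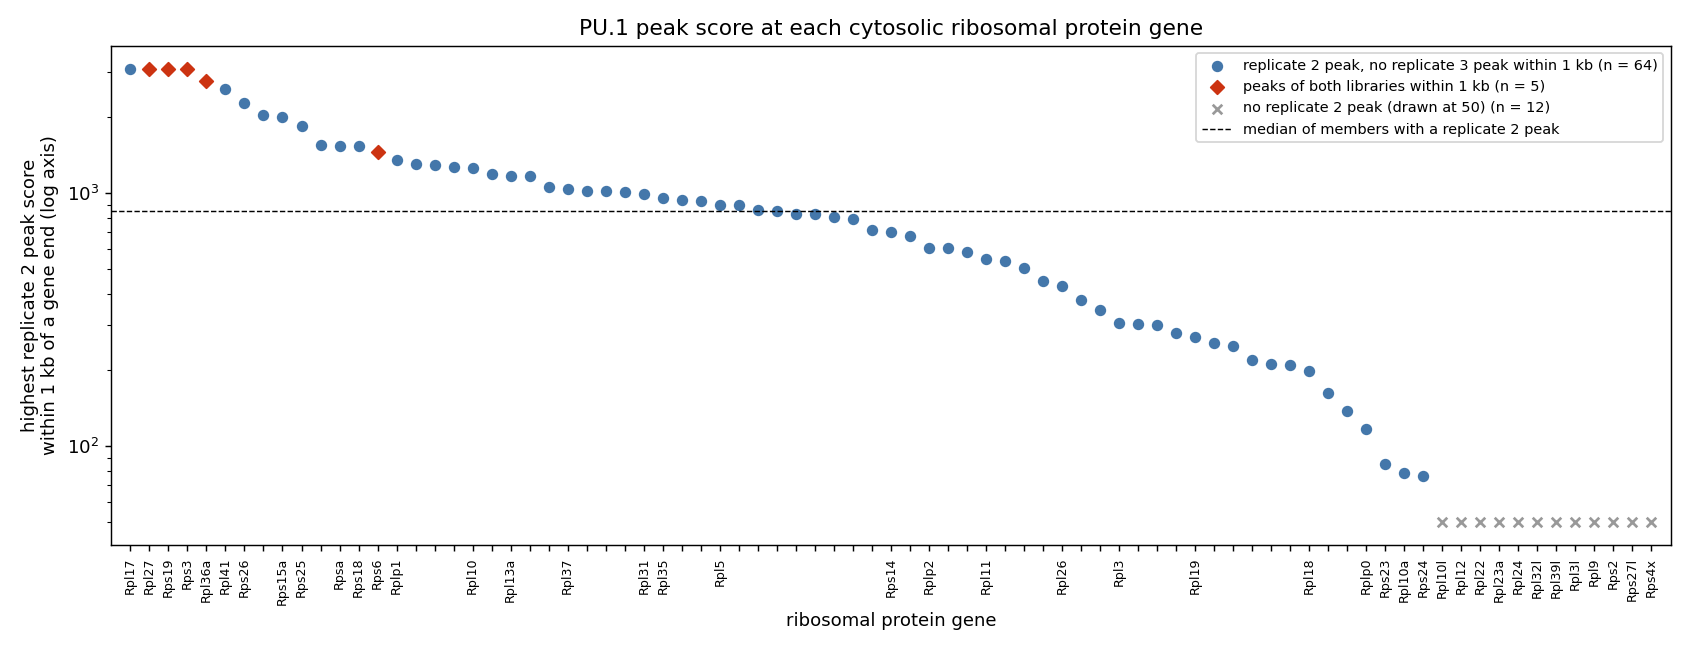
Highest replicate 2 score within 1 kb of either gene end (log axis) for each of the 81 members, in descending order, with names for genes described in the text. Diamonds mark the 5 members that also had a replicate 3 peak within 1 kb, circles the 64 without one, and crosses, drawn at an arbitrary 50, the 12 with no replicate 2 peak; the dashed line is the median of 849 over the 69 members with a peak.

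Among the 69 members with a replicate 2 peak, the best score within 1 kb ran from 76.0 to 3100, with a median of 849 and quartiles of 344 and 1263. Over the 9586 protein-coding genes with such a peak the median was 475, with quartiles of 195 and 1120. Of these members 69.6% scored 500 or more, against 48.2% of these genes, and 39.1% scored 1000 or more, against 28.1%. For 2000 or more the shares were 11.6% and 11.8%, and for the ceiling 5.80% and 5.39%. At the low end, Rps24 (76.0), Rpl10a (78.5) and Rps23 (84.8) had scores close to the lowest the list holds.

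Small-subunit genes had a peak at 28 of 31 members (90.3%) with a median score of 1021. Large-subunit genes had one at 41 of 50 (82%) with a median of 678. The ranges, 76.0 to 3100 and 78.5 to 3100, overlap almost entirely. Paralogs or copies without a peak fall mostly in the large-subunit group, with Rpl3l, Rpl10l, Rpl32l and Rpl39l there and Rps27l in the small. In all, 82 separate replicate 2 peaks lay within 1 kb of a member. Of the 81 members, 12 had 2 or more peaks within 1 kb (14.8%; background 8.19%).

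The second comparison asks where on the gene the peaks lie. Of the 81 members, 61 have an entry in the promoter table, which gives the start and strand. A replicate 2 peak lay over the annotated start of 49 of these 61 (80.3%; background 34.2%), and over the far end of the span of 3 (4.92%, against 4.01% of all genes with an entry). For Rpl13a the start peak scored 537, and for Rpl41 it scored 252, while the best peak of each lay elsewhere. In replicate 3, 6 of 61 starts were covered (9.84%; background 2.56%) and no far end was. Member scores over the start ran from 76.0 to 3100 with a median of 823, against a median of 484 over the 5980 genes with a start peak.

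Of the 61 members with an entry, 50 had a replicate 2 peak within 1 kb, and the centre of the best one lay at a median of -3 bp from the start (quartiles -184 and 128 bp, with negative values upstream). It was within 500 bp of the start in 41 of the 50 (82%), against 58.3% of the 7738 protein-coding genes with such a peak. The best peaks of the 69 members were 910 to 3033 bp wide with a median of 1193 bp, close to the median of 1162 bp for the best peaks of all genes. Across the 69 members, score and width had a Spearman rho of 0.36, and across all 9586 genes 0.61. Both are descriptions across genes, whose peaks share 1 library.

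**Figure D2:**
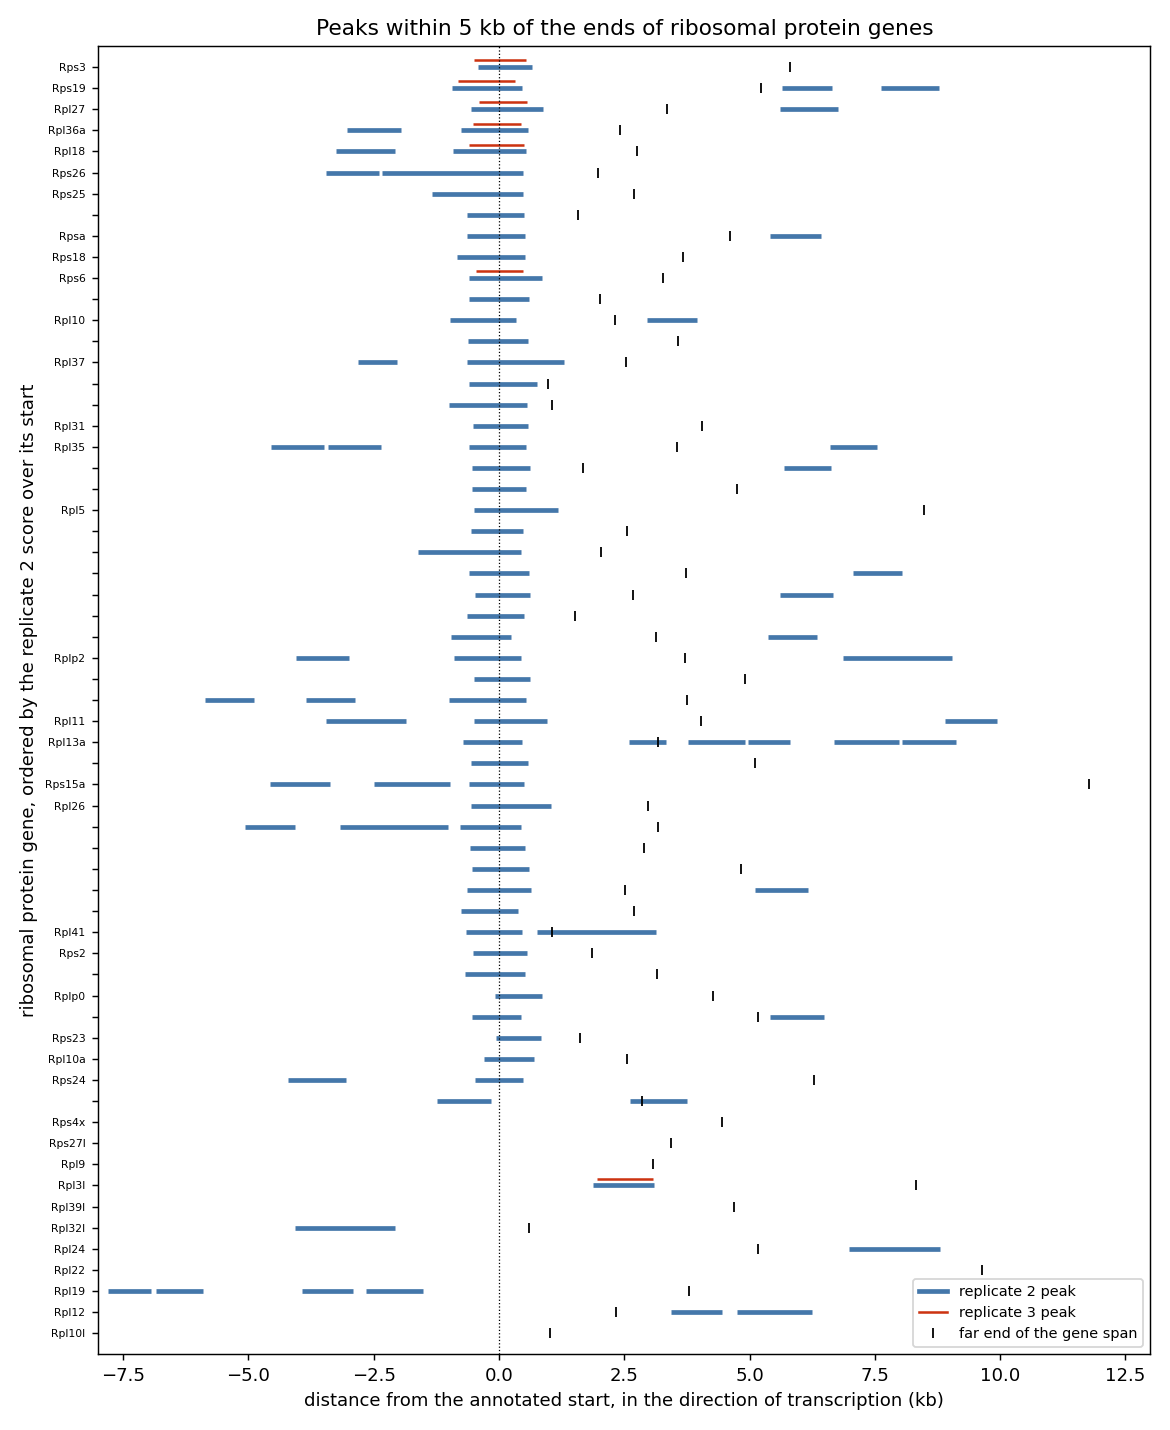
Peaks within 5 kb of the gene ends, drawn as bars to scale against the distance from the annotated start in kb, for the 61 members with a start in the promoter table. Blue bars are replicate 2 peaks, red bars replicate 3 peaks and black ticks the far ends of the gene spans; 49 starts lie under a blue bar and 6 under a red one.

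The members with the highest replicate 2 scores were checked against the genes beside them. Rpl27, Rps19 and Rps3 each scored 3100, with peaks at chr11:101441684-101443115, chr7:24883646-24885061 and chr7:99483049-99484119. Rps19 and Rps3 encode small-subunit proteins, and the human counterpart of Rps19 is known for mutations in Diamond-Blackfan anaemia. Their replicate 3 scores were 172 for Rpl27, 192 for Rps19 and 189 for Rps3, and these peaks lay over the starts as well. No other protein-coding gene end came within 5 kb of these 3 shared regions.

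Rpl17, a large-subunit gene on chromosome 18, also scored 3100 in replicate 2. Its peak lay inside the gene, 849 bp from the nearer end, and the overlapping replicate 3 peak, scored 194, lay 1041 bp from it, just outside the 1 kb window. Rpl36a, a large-subunit gene of the X chromosome, scored 2762 and 108. Its shared region, chrX:134584895-134586226, covers the start of Rpl36a and lies 1267 bp from an end of Btk, the B cell tyrosine kinase gene, and 1943 bp from Gla. Rps6, whose product is phosphorylated by S6 kinases, had 1450.2 and 87.4 over its start, the lowest replicate 3 score of the 8 members.

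Rpl18 had a peak of 198 at the outer end of its span and a stronger one over the start given in the promoter table, with 2273 in replicate 2 and 124 in replicate 3. That region also covers an end of Sphk2, a sphingosine kinase gene, and its replicate 2 centre is nearer to that gene. In Rpl3l, a paralog known from heart and skeletal muscle, a region inside the gene 1869 bp from the nearer end scored 3100 and 425, the highest replicate 3 score among the members. Rpl3 comes into the 5 kb count of shared regions through a region 4981 bp from its end (3091 and 130). Over the 8 members with a replicate 3 peak within 5 kb, the median score of 181 compares with 134 over the 1959 protein-coding genes with one.

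Other members of the top group had replicate 2 peaks without a replicate 3 peak. Rps26 scored 2260.2 in a peak of 2822 bp that covers its start but is centred 932 bp upstream of that start. Rps25 scored 1840.3 in a peak with its centre nearer to an end of Trappc4 than to one of Rps25. Rpl41 scored 2567 through a peak over its far end, whose centre is nearer to Zc3h10, and Rps15a scored 1989.6 through a peak whose centre is nearer to Arl6ip1. In all, the best peak was centred nearest to the member's own end in 57 of 69. This share was not counted over all protein-coding genes, so it has no background here.

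Some members known for other roles had replicate 2 peaks alone. Rpsa, which also encodes the laminin receptor, scored 1536, with its peak over the start. Of the stalk proteins that recruit elongation factors, Rplp1 scored 1356, Rplp2 606 and Rplp0 117. Rpl5 (901) and Rpl11 (549.8), whose products bind Mdm2 when ribosome assembly is disturbed, had peaks over their starts. Rpl10 scored 1257 and Rps14 701. None of these had a replicate 3 peak within 5 kb.

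The 12 members without a replicate 2 peak within 1 kb were Rpl9, Rpl10l, Rpl12, Rpl22, Rpl23a, Rpl24, Rpl3l, Rpl32l, Rpl39l, Rps2, Rps27l and Rps4x. Of these, Rpl9, Rpl22, Rps4x, Rpl10l, Rpl39l and Rps27l had none within 5 kb either. The 5 members whose symbol ends in l, Rpl3l, Rpl10l, Rpl32l, Rpl39l and Rps27l, are paralogs or copies of other members. Rpl10l and Rpl39l are known from the testis. None of the 5 had a replicate 2 peak within 1 kb, which allows a share of up to 52.2% (exact), against 69 of the other 76 (90.8%). With 5 genes this is a count and not a tested difference. Within 5 kb, 2 of the 5 had a peak (40%), Rpl3l with 3100 and Rpl32l with 217, against 73 of the other 76 (96.1%). Rpl36al, whose symbol also ends in l but falls outside the symbol rule, had a peak of 1359 within 1 kb. At Rps2 a peak scored 212 covers the start given in the promoter table, which lies inside the RefSeq span, so it counts by start and not by span. Rpl24 had a peak of 1891 that lay 1816 bp beyond its end.

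The third comparison asks whether replicate 3 finds the member peaks that score highest in replicate 2. None of the 56 member peaks with a replicate 2 score under 1000 overlapped a replicate 3 peak, which allows a share of up to 6.38% (exact). At the ends of any protein-coding gene, 0 of 3019 peaks under 200, 1 of 2578 from 200 to 500 and 9 of 1827 from 500 to 1000 did, so the members' count of 0 is that of the background. Between 1000 and 2000, 1 of 18 did (5.56%), against 152 of 1376 peaks at the ends of any protein-coding gene and 17.5% of 7344 peaks anywhere. Between 2000 and 3100, 1 of 4 did, against 57.0% and 71.1%. At or above 3100, 4 of 4 did, against 92.1% and 97.1%. With 4 peaks in each of the upper bands, the members' shares there carry little precision.

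When replicate 2 was held to its 6169 best peaks, with scores from 1908 upward, 9 members had one within 1 kb (11.1%; background 5.50%). Of the 9 member peaks in that group, 5 overlapped a replicate 3 peak (55.6%), against 70.0% of peaks at gene ends and 80.5% of all peaks. In the remaining 64 members with a replicate 2 and no replicate 3 peak within 1 kb, the best replicate 2 score ran from 76.0 to 3100 with a median of 813. The 6 members with a replicate 2 peak and no merged interval within 1 kb scored 76.0 to 211.

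**Figure D3:**
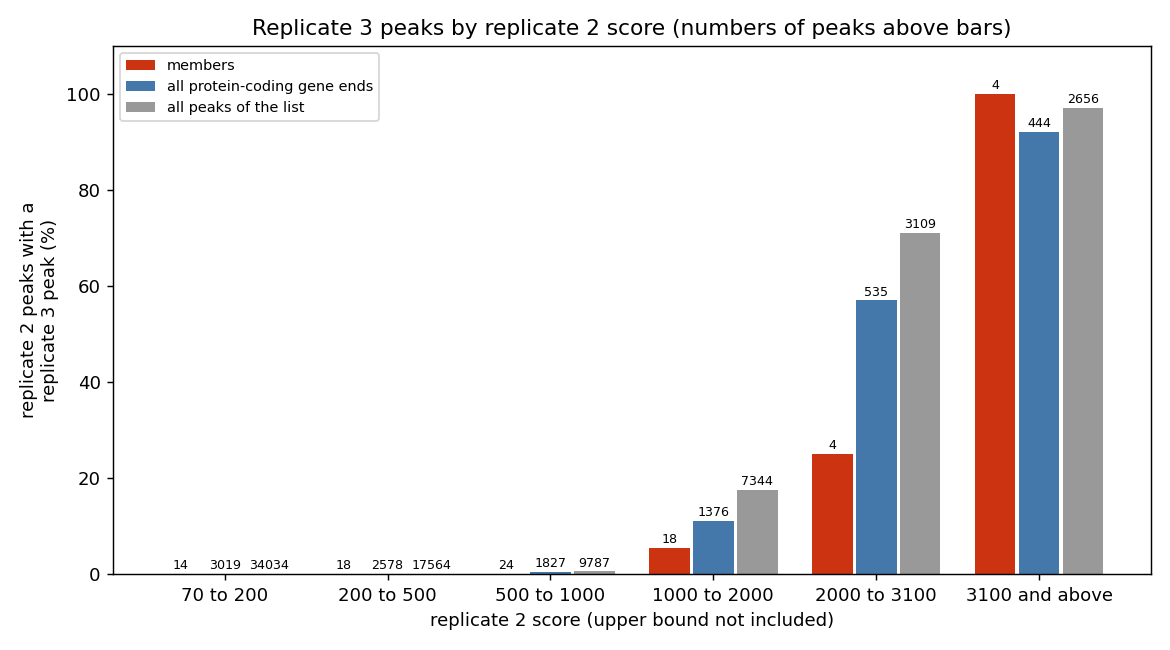
Percent of replicate 2 peaks that overlap a replicate 3 peak, by band of replicate 2 score, for peaks within 1 kb of a member (red), within 1 kb of any protein-coding gene end (blue) and for the whole list (grey). Numbers above the bars are peaks; the share is 0 for members in the 3 bands under 1000 and reaches 4 of 4 at the ceiling.

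The fourth comparison sets the members beside other genes of protein synthesis. Of 63 genes of ribosome biogenesis and RNA polymerase I, which makes ribosomal RNA, 56 had a replicate 2 peak within 1 kb (88.9%, 78.4 to 95.4) and 7 a replicate 3 peak (11.1%). Of 49 translation initiation, elongation and related factors, 44 (89.8%, 77.8 to 96.6) and 4 (8.16%) did. Of 78 mitochondrial ribosomal protein genes, whose products serve the ribosome of the organelle, 58 (74.4%, 63.2 to 83.6) and 5 (6.41%) did. High coverage in replicate 2 was thus measured in all 4 lists, and differences between them were not tested.

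The genes of these lists with the highest replicate 3 scores were Wdr12 (3100) and Wdr43 (497), both of ribosome assembly, Eif4a1 (417), the helicase of translation initiation, and Mrpl52 (223), a mitochondrial subunit. All 4 scored 3100 in replicate 2. Of the others in the top 3 of each list, replicate 3 scores were 194 for Nip7, 177 for Mrpl47, 105 for Mrps33, 95.7 for Eif3l and 89.7 for Pabpc1. Lower genes of each list are not named, so this is no ranking across the lists. Unlike the members, these genes were not checked against the genes beside them. Best replicate 2 scores had medians of 555 for biogenesis genes, 661 for translation factors and 368 for mitochondrial genes, against 849 for the members. Ribosomal genes outside the symbol rule had replicate 2 peaks within 1 kb as well, with 3100 at Rack1, 1680.1 at Rps3a1, 1359 at Rpl36al and 377 at Fau, and none of these 4 had a replicate 3 peak within 5 kb.

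Ribosomal protein genes have many processed pseudogenes, copies inserted without the parent's promoter. Of 306 annotated ones named after a member, 37 had a replicate 2 peak within 1 kb (12.1%, 8.66 to 16.3), where 10.0% of all 10442 annotated pseudogenes did. In replicate 3, 2 of 306 did (0.654%; background 0.929%). The median best score at those with a replicate 2 peak was 248. Reads from a coding exon can match parent and pseudogene alike, and the labels do not state how such reads were placed.

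**Figure D4:**
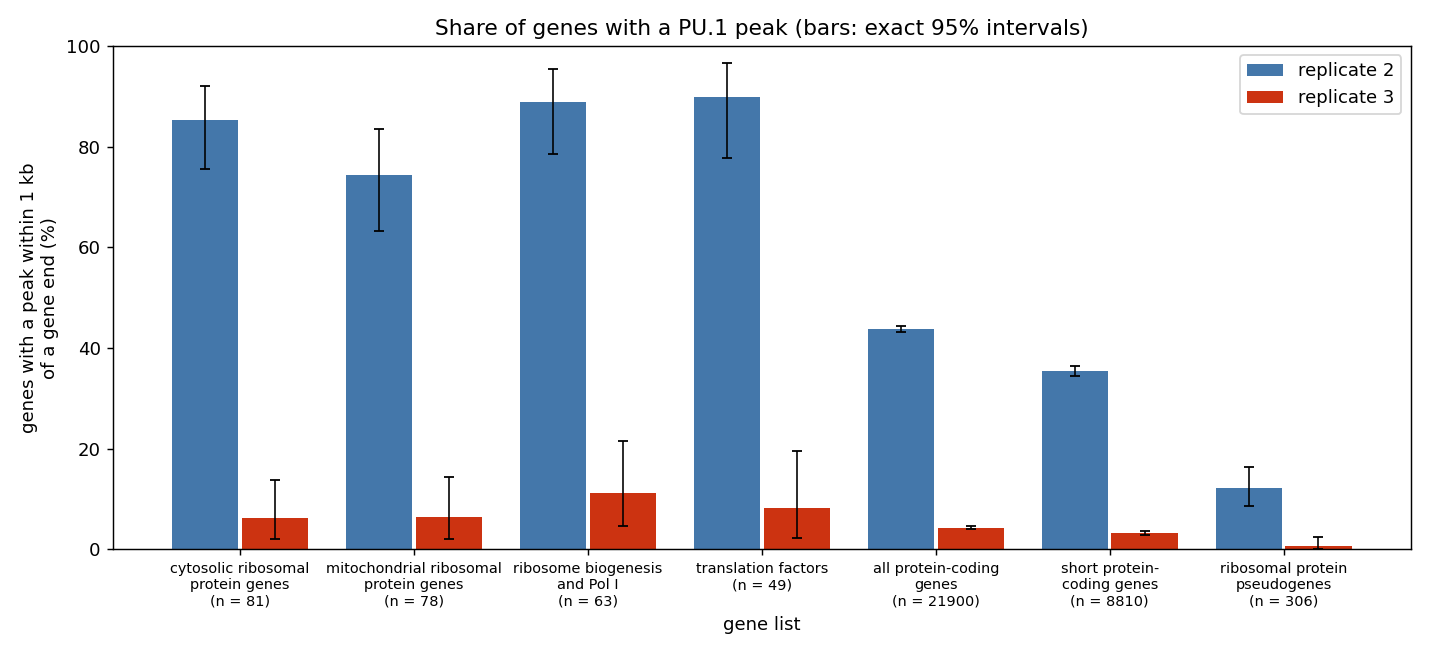
Percent of genes with a peak within 1 kb of either end in replicate 2 (blue) and replicate 3 (red), for the cytosolic ribosomal protein genes, 3 other gene lists, all and short protein-coding genes, and ribosomal protein pseudogenes; error bars are exact 95% intervals. In replicate 2 the cytosolic set stands at 85.2%, between 74.4% and 89.8% for the other lists of protein synthesis, and pseudogenes stand at 12.1%.

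The fifth comparison describes the promoter letters the members share, in the window from 250 bases before to 50 after the start, on both strands, for the 61 members with an entry and all 17492 protein-coding genes with one. The full PU.1-type site GAGGAAGT was in 3 members (4.92%), Rpl36a, Rpl35 and Rpl13a, and in 3.14% of all promoters. Rpl36a holds it at 167 and at 21 bases before the start, both visible as printed. Its first 6 letters, GAGGAA, which each full site also contains, were in 17 members (27.9%) and in 27.5% of all promoters. The PU.1-type letters were thus about as common in the members as in promoters at large. The full site was also more frequent over all genes where a replicate 2 peak lay over the start. It was in 4.9% of 5980 genes with such a peak and in 2.23% of 11512 without. In members it was in 3 of 49 with and 0 of 12 without, too few to compare. GAGGAA was in 30.8% of genes with and 25.7% without such a peak, and in 14 of 49 and 3 of 12 members. Rps19, as printed, holds GAGGAA at 165 bases before the start and its reverse complement at 109.

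The site with the flank of other ETS factors, CCGGAAGT, was in 12 of 61 members (19.7%) and in 5.28% of all promoters. Among promoters with a replicate 2 peak over the start, 10 of 49 members (20.4%) and 11.9% of 5980 genes held it, and without such a peak 2 of 12 members (16.7%) and 1.82% of 11512 genes did. The members with it were Rpl11, Rpl19, Rpl26, Rpl31, Rpl35, Rpl37, Rpl41, Rps6, Rps18, Rps25, Rps27l and Rpsa. In Rps6 it stands 91 bases before the start. The core GGAA, which occurs in both site types, was in all 61 members with a median of 5 matches, against 95.8% of promoters and a median of 3. The median was 5 in members with and 3.5 in members without a replicate 2 peak over the start, and 4 and 3 over all genes. Rps3, as printed, has 6 cores in 250 bases and no full site of either type. Its replicate 2 peak is 1071 bp wide, and sequence under the peaks outside the promoter window was not read.

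Of the other letters searched, the YY1 core AAGATGGC was in 5 members (8.20%, against 3.21%), the GC box GGGCGG in 35 (57.4%, against 46.3%) and the TATA box TATAAA in 7 (11.5%, against 13.3%). Among promoters with a replicate 2 peak over the start, both directions turned, with the GC box in 63.3% of members and 66.1% of genes and the TATA box in 10.2% and 6.76%. A pyrimidine run at the start was also counted, a measure added after the data were seen. A run of at least 5 pyrimidines that begins with C at the first transcribed base was found in 13 members (21.3%), against 2.17% of all promoters. Allowing the start to be off by up to 5 bases gave 28 (45.9%) against 18.8%. GC content was 57.0% at the median in members and 56.3% in all promoters. Over all genes it was 60.7% with and 53.0% without a replicate 2 peak over the start, and in members 58.0% and 53.8%. Base composition thus moves with the peaks, and its part in the counts was not tested. A match is a description of letters and not a bound site.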

How the data were processed

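Per the submitters' processing notes, the tools were Trim Galore, Bowtie and MACS 1.4.1, with mm10 as the build. The labels do not state how the input served MACS or how the merged list was built. The deposited score of each peak was used as the authors gave it and only within its list. MACS of this version writes it as minus 10 times the log10 of a p-value. The merged list has a score of 0 throughout and gave positions alone. Read depth was not analysed here.

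Gene spans came from a RefSeq table of GRCm38.p6, the build of mm10, and starts, strands and sequences from a RefSeq promoter table, which had an entry for 61 of 81 members. Where a gene had several starts, the outermost was used. A gene counted as covered when any base of a peak lay within 1 kb of either end, and peaks shared when they overlapped by 1 bp or more. Intervals are exact (Python 3.11.15, pandas 2.3.3, scipy 1.17.1). The code that matches peaks to gene ends was tested on simulated data.

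Members, lists, motifs and windows were chosen with earlier results of these data known. Genes named are members with a replicate 3 peak within 5 kb, the 10 highest replicate 2 scores, members with no replicate 2 peak within 5 kb, a fixed set of well-known members, and up to 3 genes per other list; further members were named after their values were seen. Some genes that this rule takes are not reported here by name. Alternatives were other windows, peak centres, the start only, a score minimum, stricter overlap, either list alone, the best replicate 2 peaks and other gene sets. Every gene of the lists matched by symbol.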

Additional observations from a re-analysis of the deposited data

How the results depend on the processing

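Of the alternative counts of members covered, 25 stayed within 1.5 times the reported count and 4 did not. Of the 25, 2 changed only the background, and with 81 members no wider window could move the 69 of replicate 2 or the 63 of the merged list that far. With a window of 5 kb or of 2 kb, replicate 3 covered 8 members in place of 5 (9.88%, against 8.95% and 5.59% of all genes). The best 6169 peaks of replicate 2 covered 9 members in place of 69 (11.1%, against 5.50%). For the 6 members with a shared region, leaving out each replicate gave 5 to 69, the higher value being the replicate 2 list alone (without replicate 3). The standard set of 81 ribosomal genes gave 74 (91.4%, against 43.8%) for replicate 2 and 5 (6.17%, against 4.29%) for replicate 3. This set brings in 5 genes outside the symbol rule, all with a replicate 2 peak within 1 kb. In their place it leaves out members without such a peak. A score of at least 100 gave 66 (81.5%, against 40.5% of all genes) and 4 (4.94%, against 2.87%). Replicate 3 covered 6 starts and 5 members by span, since Rpl18 counts only by its start. The start-only counts are over 61 members and not 81, so a count that stayed can hide a changed share. For replicate 3 the start-only share was 9.84% (background 3.75%), in place of 6.17% (background 4.29%). With 5 to 8 members covered, replicate 3 shares rest on few peaks, and its short list limits what can be detected. No paired analysis was possible because both PU.1 libraries belong to 1 group and no test was run.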
